A study of Macaca fascicularis with 18 samples.

Results

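In the cerebral cortex of the cynomolgus monkey, 217 of the 29324 Ensembl genes in the deposited table were abundant and far above both kidney and liver. These genes were chosen by their measured values. A gene belonged to the set if its median in cerebral cortex was at least 100 RPKM and at least 8 times both its median in kidney cortex and its median in liver. RPKM is a measure of read number that is corrected for gene length and library size, so that levels of different genes can be set side by side. Of the 704 genes that reached the level of 100 RPKM in cerebral cortex, 30.8% also passed the ratio. Since the choice used the level in cerebral cortex against the other tissues, that contrast is described below and not tested.

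The values come from 2 female cynomolgus monkeys of about 10 years, called A1 and A2, for which no genetic change or test treatment is stated. Cerebral cortex, kidney cortex and liver, called brain, kidney and liver here, were each sampled 3 times per animal, which gave 18 libraries from 6 groups of 3. Ketamine, midazolam and pentobarbital, given at the end, were shared by all groups, and all tissue was kept in RNA Later. The 3 samples of a group are pieces of tissue from the same animal, so that a difference between A1 and A2 is a difference between these 2 monkeys. A library is named by tissue, animal and sample number, such as brain A2-2.

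Cerebral cortex is a mixture of nerve cells, the glial cells that support and insulate them, and vessels. Nerve cells are known for large amounts of transcripts for synaptic vesicles, neurotransmitter receptors, ion channels and the axonal cytoskeleton, oligodendrocytes for those of myelin, and astrocytes for those of transmitter uptake. Kidney and liver epithelia make little of most of these. None of the 29324 identifiers was paired with a gene symbol here (0 matches), so that the roles of single genes are not given, the tissue labels could not be checked against marker genes, and no sequences are shown. Genes are therefore called by their rank within the 217, with rank 1 the highest median in brain. The 4 identifiers that are printed were chosen after their values had been seen. In bulk tissue, fewer cells of a type and less RNA per cell cannot be told apart.

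One library stood apart. Across the 15207 genes tested, which are not independent replicates, liver A2-1 had Pearson correlations of 0.646 to 0.690 with the other 5 liver samples, and those 5 had correlations of 0.971 to 0.996 among themselves. Its correlations were 0.766 to 0.784 with the kidney samples and 0.506 to 0.527 with the brain samples, both above those of the other 5 liver samples, which were 0.699 to 0.727 and 0.375 to 0.404. The limits that chose the 217 genes, applied to liver, gave 159 genes that held 41.3% to 44.6% of the summed RPKM of the other 5 liver samples and 0.212% in liver A2-1. Applied to kidney, they gave 85 genes that held 6.04% to 7.10% in kidney, 0.108% to 0.157% in the other liver samples and 0.765% in liver A2-1. The values of this library thus went against its label, and in these shares it did not reach the range of kidney or brain either, and liver A2-1 is used here only as the name of the library. It was left out of the liver median and of the tests, and its values are given separately. The 6 brain samples correlated at 0.975 to 0.995. Brain A2-2 was sequenced less deeply, at 0.348 times the median brain library where the other 5 lay between 0.948 and 1.09 (an estimate from the spacing of low values). It had 11748 genes at 0, against 10411 to 10709 in the other brain samples. None of the 217 genes was at 0 in any brain sample.

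The 217 genes held a large part of the brain transcriptome. Together they made up 13.4% ± 0.448 of the summed RPKM in brain (SD, n = 6 samples of 2 animals), 0.320% ± 0.0130 in kidney (n = 6) and 0.139% ± 0.0144 in the 5 liver samples. In the single brain libraries the share was 13.9% in A1-1, 13.8% in A1-2 and 13.5% in A1-3, and 12.9% in A2-1, 12.9% in A2-2 and 13.6% in A2-3. The values of the animals overlapped. The middle gene of the set lay between 180 and 195 RPKM in every brain library, between 2.19 and 3.06 RPKM in every kidney library and between 0.333 and 0.640 RPKM in the 5 liver libraries.

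**Figure D1:**
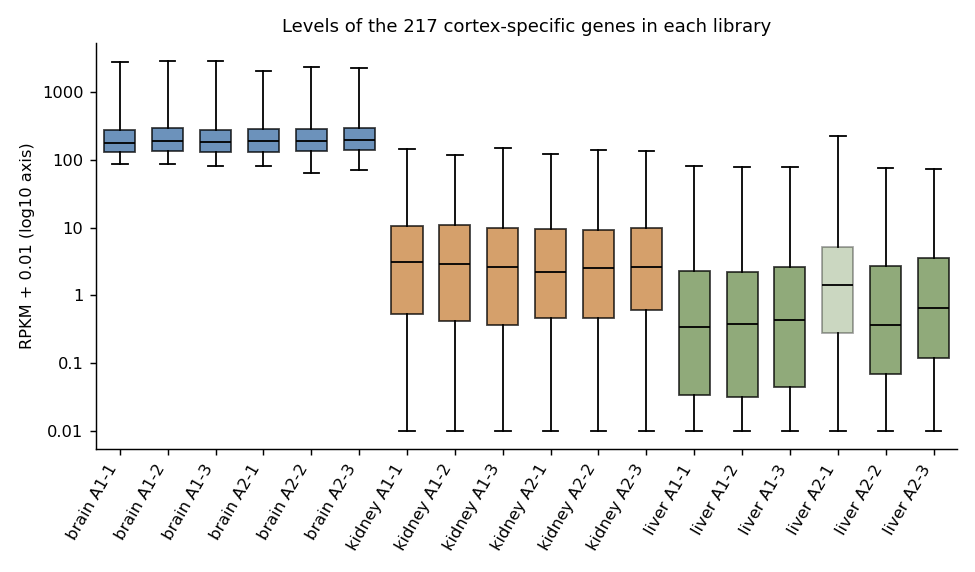
Levels of the 217 genes in each of the 18 libraries (x axis), as RPKM + 0.01 on a log10 axis. Boxes span the quartiles with the median as a line, whiskers reach the lowest and highest gene, and brain, kidney and liver are in blue, orange and green. The medians of the 6 brain libraries lie between 180 and 195 RPKM, and liver A2-1 (pale box) has a median of 1.42 RPKM, above 0.640 RPKM, the highest of the other liver libraries.

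Within brain the 217 genes spanned from 101 to 2582 RPKM at the median of 6 samples, with quartiles of 135 and 282 RPKM around a middle value of 185. A few genes carried much of the total. The 10 highest held 20.4% of the summed brain medians of the set, and the 50 highest held 52.8%. There were 6 genes at 1000 RPKM or more, 25 at 500 or more and 98 at 200 or more. Of the 100 most abundant genes of brain, 34 belonged to the set.

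The gene of rank 1 was the 10th most abundant in brain. It had 2770, 2889 and 2883 RPKM in the 3 samples of A1 and 2057, 2394 and 2282 RPKM in those of A2, against 1.81 to 3.35 RPKM in kidney and 2.70 to 3.31 RPKM in the 5 liver samples. All A1 samples lay above all A2 samples, but the difference did not pass the test described below (log2 difference of A2 minus A1 of -0.35, SE 0.13, adjusted p = 0.0758). Rank 2, with 1289 to 1501 RPKM in brain, was of another kind. Its levels in the other tissues were the highest of the whole set, at 120 to 148 RPKM in kidney and 74.3 to 80.2 RPKM in liver, so that it lay close to the limit of the choice. Rank 3 had 1258 to 1570 RPKM in brain and similar low levels in both other tissues, from 20.8 to 31.9 RPKM in kidney and from 22.3 to 33.7 RPKM in liver.

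The genes differed widely in how far the other tissues were from silent. In kidney the middle gene had a median of 2.36 RPKM, and in liver 0.348 RPKM. The kidney median was under 1 RPKM for 73 genes, between 1 and 10 RPKM for 90 and at 10 RPKM or more for 54. In liver these numbers were 136, 60 and 21. Both medians were under 1 RPKM for 69 genes (31.8%), and both were at 10 RPKM or more for 14.

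The smaller of the ratios of brain over kidney and brain over liver was at least 16 for 165 of the 217 genes, at least 100 for 91 and at least 1000 for 37. Of all 217, 1 gene was listed at 0 in all 6 kidney and all 5 liver samples. This gene, of rank 139, was at 0.386 RPKM in liver A2-1, and had 177, 265 and 181 RPKM in brain of A1 and 128, 100.5 and 128 RPKM in brain of A2. In 185 genes the kidney median was above the liver median, and in 26 it was below. No such count was taken over all genes, which were also mostly higher in kidney. The median log2 difference of kidney minus liver was 0.89 over the set and 0.89 over all genes tested. After median-of-ratios scaling, which evens out shifts shared by most genes, these were 0.33 and 0.02.

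**Figure D2:**
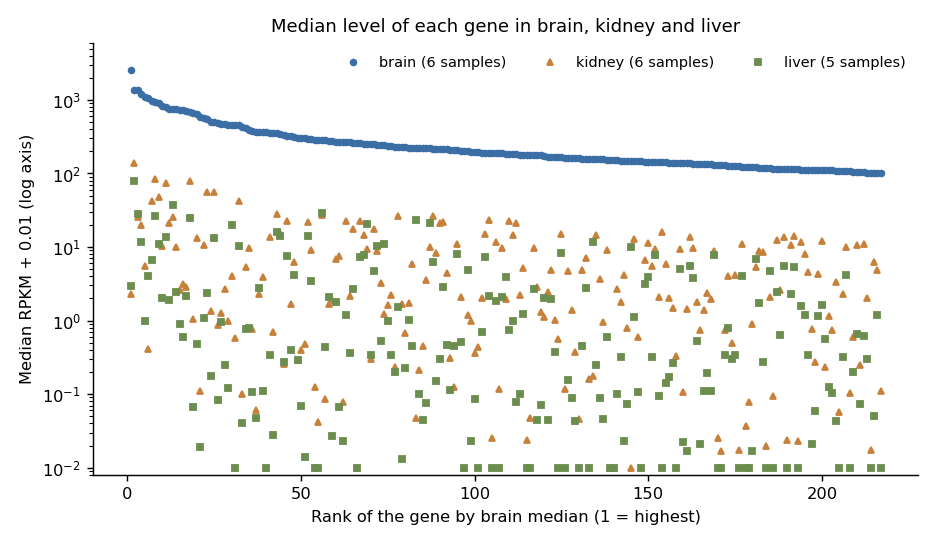
Median level of each of the 217 genes in brain (blue circles, n = 6 samples), kidney (orange triangles, n = 6) and liver (green squares, n = 5), as RPKM + 0.01 on a log axis, ordered by the brain median. Brain falls from 2582 to 101 RPKM along the ranks, and the kidney and liver medians scatter from 0 up to 138 and 78.1 RPKM with the limit of 8-fold below brain.

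At the limits of the choice, members and non-members were alike. The smallest ratio among the members was 8.13, and the nearest gene outside had a ratio of 7.99. On the scale of the level, the lowest member had 101 RPKM in brain and the nearest gene outside had 99.7 RPKM.

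The levels in brain varied somewhat more between samples than those of the 487 other genes with at least 100 RPKM in brain. Between the highest and the lowest of the 6 brain samples lay a factor of 1.34 at the middle gene, and at most 1.5 for 164 of the 217 genes (75.6%). For the 487 other genes the middle value was 1.28, and 87.7% had a factor of at most 1.5. The factor was over 2 for 12 genes of the set (5.53%) and for 1.85% of the others, and over 3 for 4 genes (1.84%) and for 0.205% of the others. The coefficient of variation within an animal had a median of 5.72% in A1 and 8.40% in A2 over the 217 genes. Over the 487 other genes the medians were 5.60% and 7.09%. Against all genes tested, which are of any level, the set varied less. Of these, 51.7% had a factor of at most 1.5, 24.2% of over 2 and 12.8% of over 3. Their coefficients of variation had medians of 8.77% in A1 and 11.7% in A2. These are descriptions, with no test.

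Which genes of the set differed between the brains of the 2 monkeys was tested with limma on log2(RPKM + 1) over the 15207 genes that reached 1 RPKM in 3 or more samples. All 217 passed this filter through their high values in brain. The choice used the median of the same 6 brain samples without regard to the animal, so that this comparison is not fully independent of it. A gene could reach the level of 100 RPKM largely through 1 of the animals, and ranks 95 and 160 below had samples of A2 under that level. At a Benjamini-Hochberg adjusted p below 0.05 and a difference of at least 2-fold, 4 genes differed, and all 4 were lower in A2 than in A1. This is 1.84% of the set, where 1.76% of all genes tested and 0.411% of the 487 other genes with at least 100 RPKM in brain passed. The share of all genes is not on an equal footing, since other genes could pass the filter through kidney or liver. On this scale, genes near 0 in brain have hardly any room for a 2-fold difference there. With a pseudocount of 0.1, 1.38% of the set and 4.23% of all genes tested passed. Of all genes tested, 0.901% passed as higher in A1 and 0.855% as higher in A2. None of the 217 genes was at least 2-fold higher in A2, also at an unadjusted p below 0.05 (0 genes). Without the limit on the fold, 51 genes (23.5%) were higher in A2 and 34 (15.7%) were higher in A1 at an unadjusted p below 0.05, where 15% and 18.1% of all genes tested were.

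The largest difference was that of ENSMFAG00000041988, of rank 4. It had 2563, 1843 and 2653 RPKM in the brain samples of A1 and 319, 555 and 310 RPKM in those of A2. The lowest sample of A1 was thus far above the highest of A2. The means were 2353 ± 444 and 395 ± 139 RPKM (SD, n = 3 samples of 1 animal each), and the log2 difference was -2.61 (SE 0.22, adjusted p = 1.68e-06), which is a 6.10-fold lower level in A2. In kidney the same gene did not show this order, with 17.1 to 20.1 RPKM in A1 and 17.6 to 28.8 RPKM in A2. In liver the order was turned, with 7.57, 11.8 and 9.78 RPKM in A1 and 15.6 and 17.1 RPKM in liver A2-2 and A2-3. The difference between tissues was not tested.

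ENSMFAG00000032441, of rank 95, had 301, 381 and 346 RPKM in A1 and 118, 75.7 and 74.9 RPKM in A2. Again no sample of A2 reached the range of A1. The log2 difference was -1.95 (SE 0.16, adjusted p = 1.22e-06). The third gene, of rank 19, had 1177, 773 and 1640 RPKM in A1 and 267, 567 and 385 RPKM in A2. Of the 4 genes it had the highest coefficients of variation within A1 and within A2, and its log2 difference was -1.56 (SE 0.25, adjusted p = 0.000364).

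The fourth gene was ENSMFAG00000032473, of rank 160. It had 169, 236 and 194 RPKM in A1 and 110, 81.8 and 101 RPKM in A2. Its log2 difference of -1.02 (SE 0.14, adjusted p = 9.14e-05) lay close to the limit of 2-fold, and fell below it after median-of-ratios scaling and without either of 2 brain samples (log2 differences of -0.97 with the scaling, -0.89 without brain A1-2 and -0.90 without brain A2-2). It lost its adjusted p with a pseudocount of 0.1 (adjusted p = 0.0879), and with liver A2-1 in the fit (adjusted p = 0.798), in which this gene was very high.

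In the other direction, the gene of rank 121 had the largest difference. It had 122, 124 and 112 RPKM in A1 and 216, 249 and 252 RPKM in A2, and its log2 difference of 0.99 (SE 0.09, adjusted p = 1.9e-06) was just under the limit. After median-of-ratios scaling, and without brain A1-1, A1-2 or A2-1, 1 gene passed the test as higher in A2. Leaving out single brain samples gave 3 to 6 genes that were higher in A1, with 6 without brain A2-1 and also without brain A2-3.

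**Figure D3:**
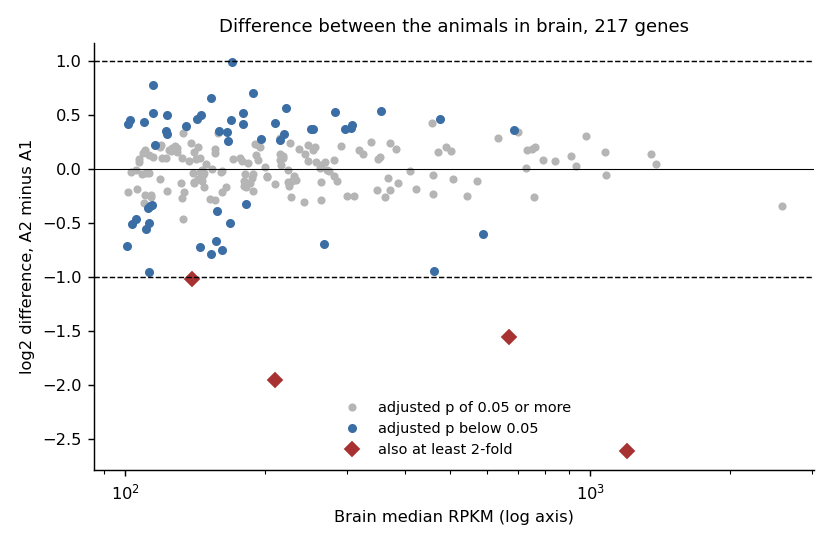
Log2 difference of A2 minus A1 in brain (y axis) against the brain median in RPKM (x axis, log scale) for the 217 genes. Red diamonds are the 4 genes with an adjusted p below 0.05 and at least 2-fold, all below the lower dashed line at -1, and blue circles are the other genes with an adjusted p below 0.05. Most genes lie close to 0, with a median of 0.06.

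Smaller differences were more frequent. With the adjusted p alone, 58 genes passed (26.7%), 35 of them higher in A2 and 23 higher in A1. Of all genes tested 20.7% passed (9.41% higher in A2 and 11.3% higher in A1), and of the 487 other abundant brain genes 17.5%. The number of 58 depended on the processing, with 25 to 66 genes under 7 alternatives. It was 25 with a pseudocount of 0.1, 25 with liver A2-1 in the fit, and 39 to 56 without single brain samples. For 104 genes (47.9%) the animals did not overlap, with A2 higher in 61 and A1 higher in 43, where this held for 38% of all genes tested (17.1% with A2 and 20.9% with A1 higher) and 35.3% of the 487. The absolute log2 difference was 0.19 at the median of the set, 0.14 at that of the 487 other abundant brain genes and 0.17 at that of all genes tested. These shares are descriptions, since genes of a tissue vary together. The spread in the test was shared with kidney and liver, in which most of the 217 genes were low. With the 6 brain samples alone the same 4 genes passed.

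**Figure D4:**
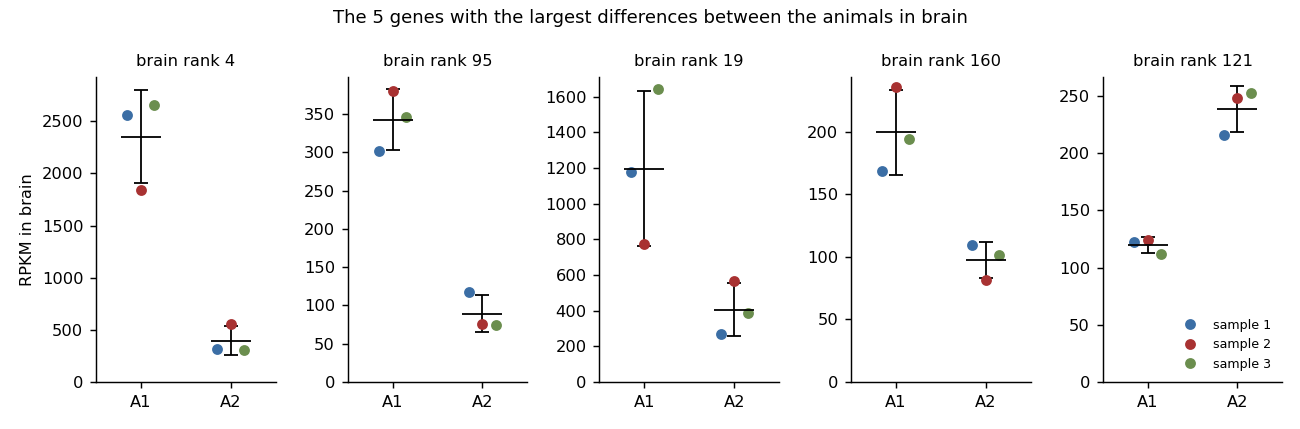
RPKM in brain of A1 and A2 for the 5 genes of the set with the largest differences, by their rank in the set (one panel each, with its own y axis from 0). Dots are the single samples, coloured by sample number, and bars are the mean ± SD (n = 3 samples of 1 animal). Ranks 4, 95, 19 and 160 are lower in all samples of A2, and rank 121 is higher in all samples of A2.

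The order of the samples within an animal was not the same in all genes. Of the 10 genes with the largest differences, which were picked for these differences, 8 were higher in A1. In 4 of the 8 genes that were higher in A1, brain A1-2 was the highest sample of A1 and brain A2-2 the lowest of A2, as for ranks 139 and 160. In 2 of them, of ranks 4 and 19, it was the other way round, with A1-2 lowest in A1 and A2-2 highest in A2. Over the whole set, the first order was seen in 68 genes (31.3%) and the second in 20 (9.22%). Among the 487 other abundant brain genes the shares were 24.4% and 7.60%, and among all genes tested 15.9% and 19.9%. Brain A2-2 is the library of the lowest depth, and the part of the depth in this order was not tested.

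In kidney, the samples of one animal lay above all of the other in a smaller part of the genes. A2 was higher in 35 of the 217 genes (16.1%) and A1 in 38 (17.5%), where this held for 16.7% and 19.2% of all genes tested. An example chosen after its values were seen is rank 127. It had 176, 209 and 187 RPKM in brain of A1 and 86.4, 112 and 148 RPKM in brain of A2, without overlap. In kidney it had 6.60 to 13.1 RPKM in A1 and 2.23 to 2.77 RPKM in A2. In liver the order was turned, with 0.079 to 0.145 RPKM in A1 and 2.21 and 2.81 RPKM in liver A2-2 and A2-3. The difference between tissues was not tested.

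How the 217 genes differed between kidney and liver was compared next. The choice did not set kidney against liver, but it used both medians and set an upper limit for each, so that the values below describe the chosen genes and are not independent of the choice. For this test limma was given 6 values per gene, each the mean of an animal in a tissue, since the animals are the independent units (n = 2). At an adjusted p below 0.05 and at least 2-fold on the log2(RPKM + 1) scale, 96 genes were higher in kidney and 8 were higher in liver. These are 44.2% and 3.69% of the set, where 42.8% and 5.23% of all genes tested, and 62.2% and 1.64% of the 487 other abundant brain genes, passed. The shares are not on an equal footing, since the 217 genes passed the filter of 1 RPKM in 3 samples through brain, while other genes could pass it through kidney or liver. They are given as descriptions, and nothing about the set is read from them. The median log2 difference of kidney minus liver was 0.89 over the set and 0.89 over all genes tested. After median-of-ratios scaling, which brought the median over all genes from 0.89 to 0.02, 52 genes of the set were higher in kidney (24.0%) and 18 in liver (8.29%), and the median over the set was 0.33. Of all genes tested, 12.7% were then higher in kidney and 12.1% in liver. None of the 69 genes with both medians under 1 RPKM passed (0 of 69), since on this scale such values leave hardly any room for a 2-fold difference.

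Most of these genes were far from abundant in kidney, as 55 of the 96 had a kidney median under 10 RPKM. Among the genes higher in kidney, the largest difference was that of ENSMFAG00000027932, of rank 112. It had 22.3, 22.1 and 27.0 RPKM in kidney of A1 and 20.1, 15.4 and 19.6 RPKM in kidney of A2, and at most 0.296 RPKM in the 5 liver samples (log2 difference 4.31, SE 0.19). Rank 154 had 10.9 to 20.04 RPKM in kidney, and was listed at 0 in 4 of the 5 liver samples and at 0.004 RPKM in the other. Rank 90 had 15.8 to 23.1 RPKM in kidney and 0.183 to 0.507 RPKM in liver (log2 difference 4.01, SE 0.17). These genes were therefore low in liver but clearly measured in kidney.

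The opposite was seen in 8 genes (3.69%), where 5.23% of all genes tested passed in this direction. Rank 83 had 188 to 287 RPKM in brain, 16.6 to 25.9 RPKM in the 5 liver samples and at most 0.072 RPKM in kidney (log2 difference of kidney minus liver of -4.53, SE 0.13). Rank 134 had 8.46 to 13.2 RPKM in liver and 0.044 to 0.249 RPKM in kidney. Rank 145 had 6.17 to 11.5 RPKM in liver, and was listed at 0 in 5 of the 6 kidney samples and at 0.470 RPKM in kidney A2-3. In the abundant gene of rank 6, with 950 to 1209 RPKM in brain, liver had 3.37 to 6.55 RPKM and kidney 0.203 to 1.01 RPKM.

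The library labelled liver A2-1 was not used in the choice of the genes. It is set here against the median of the other 5 liver samples, which the choice did use, so that the differences are not independent of it. The 217 genes made up 0.251% of its summed RPKM, where the other liver samples lay between 0.128% and 0.162% and the kidney samples between 0.301% and 0.341%. Much of this excess over the other liver samples lay in 3 genes. Of the 1626 RPKM of the set in liver A2-1, ranks 23, 160 and 112 had 227, 190 and 173 RPKM. In the other liver samples the whole set summed to 673 to 836 RPKM. On the log2(RPKM + 1) scale, 65 genes were at least 2-fold above the median of the other 5 liver samples (30%), where this held for 15.2% of all genes tested and 13.8% of the 487 other abundant brain genes. In 63 of the 65, liver A2-1 was above each of the other liver samples. This count says little, since the 65 were picked for lying above the median of those samples. No such share was taken over all genes tested. Another 19 genes (8.76%) were at least 2-fold lower, where 11.6% of all genes tested and 6.98% of the 487 were. The choice sets an upper limit for the liver median, which leaves less room below it than above. With 1 library there is no test.

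The gain was not spread evenly over the set. In liver A2-1, 35 genes reached 10 RPKM and 3 reached 100 RPKM. These 3 were at over 30% of their brain median, and 14 genes were at over 10%. ENSMFAG00000032473, which was also lower in the brain of A2, had 190 RPKM in liver A2-1, which was 137% of its brain median. It had at most 0.305 RPKM in the other liver samples and 0.042 to 0.298 RPKM in kidney. ENSMFAG00000027932 had 173 RPKM in liver A2-1, or 95.5% of its brain median. Rank 23 had 227 RPKM there, against 439 to 750 RPKM in brain, 41.1 to 75.3 RPKM in kidney, 0.972 to 2.39 RPKM in liver of A1 and 4.17 to 4.29 RPKM in the other liver samples of A2.

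Among the genes that were lower in liver A2-1 were both of the 2 most abundant. Rank 1 had 0.399 RPKM there, against at least 2.70 RPKM in the other liver samples. Rank 2 had 3.31 RPKM, against at least 74.3 RPKM. Rank 134 had 0.015 RPKM, against at least 8.46 RPKM. The set thus did not move in one direction in this library.

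**Figure D5:**
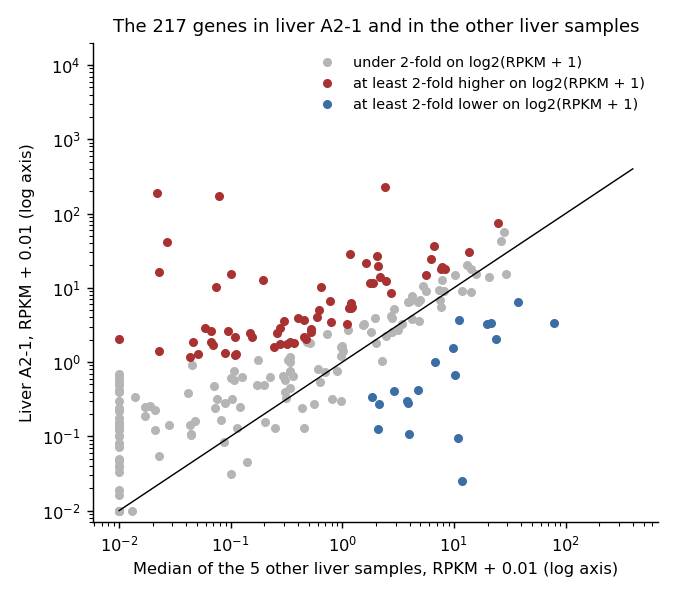
Level of each of the 217 genes in liver A2-1 (y axis) against the median of the other 5 liver samples (x axis), both as RPKM + 0.01 on log axes, with the line of equal values. Red circles are the 65 genes at least 2-fold higher and blue circles the 19 at least 2-fold lower on the log2(RPKM + 1) scale, and 3 red circles lie above 100 RPKM.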

How the data were processed

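RNA-Seq libraries of brain, kidney and liver from 2 cynomolgus monkeys were analysed. The authors aligned reads of 85 bp with STAR (version 2.5.2a11 in the submitters' processing notes, whose last digits may be a citation) to the Ensembl version 92 genome and deposited RPKM values per Ensembl gene and library without pooling. They used Cufflinks for FPKM and featureCounts for read counts. From which of these the deposited values came is not given in the sources used here. The labels and the methods differ on whether the library kit kept the strand, so that overlapping genes may share reads. All 18 columns were used.

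The genes of the set, the tests and the gene lists were chosen with earlier results of these data known. The gene lists could not be used without symbols. The rule for named genes then allows no more than 4 identifiers. Printed are the 2 with the largest fall in brain of A2 and 2 that were far higher in liver A2-1, and other genes are given by rank.

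RPKM values are not counts, so log2(RPKM + 1) was tested with limma 3.58.1 (R 4.3.3, intensity trend, Benjamini-Hochberg adjustment over 15207 genes). Animals were compared in brain on 17 samples with 6 group means, and kidney with liver on 6 means. In a test on simulated data with 200 genes changed by a log2 difference of 1.5, 99.5% were recovered between animals and 100% between kidney and liver, with 0 other genes called in both. Apart from the changed genes, the simulated animals did not differ, and the changed genes were taken only from those with high mean values. The simulation therefore does not show how the tests fare with a spread between animals or with low genes, such as most of the set in kidney and liver. P-values measure the spread between samples of the same animal for the first test. Relative depth was estimated within brain from the most frequent ratio of low values, a step added after the data were seen and tested on simulated reads with mainly short genes. Absolute depth of single libraries is not known, and no intervals are given. The shares of genes chosen in the same way for kidney and liver were added after the data were seen. No 2 columns shared more than 1.23% of their values above 0.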

Additional observations from a re-analysis of the deposited data

Results flagged for a closer look

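Each of 25 sets of 6 values (a measure or gene in a tissue) was searched for an extreme sample whose distance to the next one was over 0.625 of the whole range. In 6 sets one was found. Chance gives about 1 in 20 for independent sets, which these are not, since 5 of the 6 come from the same library and the genes were picked with their values known. Brain A2-2 stood apart in relative depth (0.348, others 0.948 to 1.09). The other 5 were all in liver A2-1. Its share of the 217 genes was 0.251% (others 0.128% to 0.162%), and much of the excess lay in 3 genes, as given above. ENSMFAG00000032473 had 190 RPKM there (others at most 0.305), and ENSMFAG00000027932 had 173 RPKM (others at most 0.296). The gene of rank 19 had 1.86 RPKM (others 0.010 to 0.201). The gene of rank 1 was low, at 0.399 RPKM (others 2.70 to 3.31).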

How the results depend on the processing

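The size of the set followed its limits, with 435 genes at a brain median of 50 RPKM and 98 at 200 RPKM. Under the other 5 alternatives it lay between 165 and 268 (181 after median-of-ratios scaling, of which 175 were among the 217), and without single samples it was 216 to 220. The share of brain RPKM was 15.9% at a 4-fold and 10.5% at a 16-fold ratio, 15.3% without the 10 highest genes of each sample, and 13.3% to 13.5% without single brain samples. Between the animals in brain, 3 to 4 genes passed under 7 alternatives, where 1.21% to 4.23% of all genes tested passed. With a pseudocount of 0.1 it was 3 genes (1.38%), against 4.23% of all genes tested. Without single brain samples 3 to 7 genes passed, where 1.70% to 2.05% of all genes tested passed. The 7 genes were those without brain A2-1 (3.23%, all genes 1.94%). The sample number as a replicate block gave 4 genes. Same-numbered brain samples of the 2 animals deviated with correlations of -0.15 to 0.05, and samples of different numbers with -0.19 to 0.14. These correlations thus gave no sign that the numbers pair samples, and a pairing was not tested further. Between kidney and liver, 70 to 147 genes passed under 7 alternatives (105 with the animal as a replicate block), where 24.8% to 61.9% of all genes tested passed, and 103 to 108 without single samples. In liver A2-1, 18 genes were 4-fold higher (8.29%, all genes 5.19%), 109 were 2-fold higher with a pseudocount of 0.1 (50.2%, all genes 25.3%), and 59 to 65 without single liver samples. The cause of these shifts was not tested. Low values in kidney and liver are limited by a depth that is known only in relative terms.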
